A study of Homo sapiens with 20 samples.

Results

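The genes described here are those that carry interferon signals from the cell surface to the nucleus and those that switch the signal off. There are 9 of them among the 58233 Ensembl identifiers counted in the study: the receptor chains *IFNAR1*, *IFNAR2*, *IFNLR1* and *IL10RB*, the kinases *JAK1* and *TYK2*, the transcription factor *STAT2*, and the feedback inhibitors *SOCS1* and *SOCS3*. They were chosen by name for their place in the pathway, and each of the 9 symbols matched 1 identifier. The study asked why some lung cancer cell lines die when they lose ADAR1, the RNA-editing enzyme encoded by *ADAR*, and used RNA-seq of 20 libraries from 4 established lines. HCC366 (an adenosquamous lung carcinoma), NCI-H1650 (a lung adenocarcinoma) and NCI-H196 (a small cell lung cancer) need ADAR1 and were left untreated. A549 (a lung adenocarcinoma) does not need it, and received vehicle (sterile water) or 10 ng/mL IFN-β for 24 h. Cells of every group carried Cas9 and an sgRNA against *GFP*, the control, or against *ADAR* delivered by lentivirus. RNA of the untreated lines was taken 5 days after transduction. Each of the 10 conditions has 2 libraries, sgRNA 1 and sgRNA 2, so the spread given here is that between 2 sgRNAs, which are pools of transduced cells, and not between repeats of the experiment.

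Type I interferons such as IFN-β bind a receptor made of IFNAR1 and IFNAR2. Type III interferons bind a different pair, IFNLR1 and IL10RB, and IL10RB also serves the receptors of the interleukin-10 family. TYK2 sits on IFNAR1 and on IL10RB, and JAK1 sits on IFNAR2 and on IFNLR1. The paired kinases phosphorylate STAT proteins, and STAT2 joins IRF9 in ISGF3, the complex that binds interferon-stimulated response elements (ISREs) in the promoters of interferon-stimulated genes. STAT3 homodimers bind a different element, the GAS. SOCS1 and SOCS3 are small proteins induced by cytokines that bind receptors or kinases and dampen the signal. In lung epithelium the type III receptor is a characteristic feature, whereas the type I receptor is found on most cells.

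*STAT2*, *SOCS1* and *SOCS3* were the members that passed the test for a rise with IFN-β (adjusted p under 0.05) in both A549 backgrounds, so their promoters are shown for reading beside those results. The windows are RefSeq promoters on GRCh38.p14 (8 of the 9 genes matched, with 12 start sites; *IFNAR2* is without an entry in the table used). Each line gives the 150 bases that lie just before a start, 5′ to 3′ on the gene's own strand, which is minus for all of them. Capitals mark matches to the ISRE core (2 copies of GAAA with any 2 bases between them) or to the GAS core TTCNNNGAA, both searched on each strand.
STAT2, chr12:56360108-56360257: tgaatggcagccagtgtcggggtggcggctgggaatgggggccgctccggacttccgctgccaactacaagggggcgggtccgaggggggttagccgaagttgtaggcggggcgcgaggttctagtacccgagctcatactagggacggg
SOCS1, chr16:11256205-11256354: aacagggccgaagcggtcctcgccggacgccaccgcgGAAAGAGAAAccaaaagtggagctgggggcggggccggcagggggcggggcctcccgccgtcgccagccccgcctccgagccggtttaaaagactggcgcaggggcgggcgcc
SOCS3, upstream start, chr17:78360926-78361075: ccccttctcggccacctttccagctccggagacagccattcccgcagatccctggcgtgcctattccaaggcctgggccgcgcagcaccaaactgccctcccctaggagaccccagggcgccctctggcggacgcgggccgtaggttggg
SOCS3, downstream start, chr17:78359668-78359817: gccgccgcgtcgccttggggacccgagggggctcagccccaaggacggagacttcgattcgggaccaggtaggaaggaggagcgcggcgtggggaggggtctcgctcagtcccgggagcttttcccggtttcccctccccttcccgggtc

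Within the 250 bases before each start, the ISRE core GAAAGAGAAA was found in *SOCS1*, between 113 and 104 bases before the start. The other 11 windows held no ISRE core of these letters. Over all 35116 windows of the same length, 3.02% held the ISRE core. The GAS core was found in *IFNLR1*, as TTCCGGGAA between 238 and 230 bases before the start, and in 6.57% of all windows. This stretch is shown because *IFNLR1* is the member whose level differed most between cell lines.
IFNLR1, chr1:24187469-24187539: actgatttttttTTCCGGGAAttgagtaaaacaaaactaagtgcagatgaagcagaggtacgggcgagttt
A match of letters is a description of the sequence and not a bound site, and windows without a match say nothing about the factor.

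Library depth and quality limited some comparisons. Reads on genes numbered between 62679 and 19520189 per library (median 6411279). NCI-H196 GFP sgRNA 2 was the library with 62679, and 1 of its reads is worth about 15.95 CPM, the read count after scaling for library size, so every member other than *JAK1* rests there on 12 reads or fewer. In HCC366 ADAR sgRNA 2, 85.6% of alignments were not unique, against 22.5% to 59.1% elsewhere, and 49.5% of the variance of its log2 ratio to the mean of the HCC366 libraries was explained by GC content and exon length. Among defining markers, the keratins *KRT8* and *KRT18* were at 591 CPM or more in every library of A549, HCC366 and NCI-H1650 and at 42.6 CPM or less in NCI-H196. The other epithelial markers, *EPCAM*, *KRT19* and *CDH1*, were at 91.8 CPM or more in NCI-H1650. *EPCAM* and *KRT19* stayed at 1.87 CPM or less in the remaining lines, and *CDH1* was at 16.6 to 61.2 CPM in A549, 2.28 to 9.91 CPM in HCC366 and 0.332 CPM or less in NCI-H196. The squamous markers *TP63*, *KRT5*, *KRT6A* and *SOX2* did not pass 4.08 CPM in HCC366, while *TP63* was at 13.7 to 41.8 CPM in NCI-H196. In NCI-H1650 *KRT6A* was at 57.0 to 69.2 CPM, and *TP63*, *KRT5* and *SOX2* were at 4.02 CPM or less. The neuroendocrine regulators *NEUROD1* and *INSM1* had 0 counts in all NCI-H196 libraries, and the neuroendocrine markers *CHGA* and *SYP* were at 1.62 CPM or less there. *CHGA* was at 11.3 to 20.9 CPM in NCI-H1650. The leukocyte genes *CD3E* and *LYZ* had 0 counts in all 20 libraries.

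*ADAR* itself was checked first. In A549 with vehicle it was at 436 and 437 CPM with *GFP* sgRNAs and at 161 and 250.1 CPM with *ADAR* sgRNAs. With IFN-β it was at 1219 and 1193 CPM with *GFP* sgRNAs, against 691 and 895 CPM with *ADAR* sgRNAs. In the untreated lines the *GFP* and *ADAR* libraries were at 804 and 1101 against 571 and 490 CPM in HCC366, 621 and 760.5 against 296 and 268 CPM in NCI-H1650, and 664 and 865 against 564 and 482 CPM in NCI-H196. The *ADAR* libraries were below the *GFP* libraries in each of these 5 settings, and the fall passed the test in 4 of them (log2 fold change −1.08 in A549 with vehicle, −0.60 with IFN-β, −1.29 for NCI-H1650 and −0.41 for NCI-H196). The value of HCC366 was −0.84 with an adjusted p of 0.208 from edgeR's quasi-likelihood test. Mutated and intact transcripts are counted alike.

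Basal levels were compared between the lines in the *GFP* libraries, scaled together over those 8 libraries. The ADAR1-dependent lines carried more *STAT2*, *TYK2*, *IFNAR1* and *SOCS1* RNA than A549 and less *SOCS3*, while *JAK1* was nearly level and *IFNLR1* ran from no counts to the highest values of NCI-H1650 and NCI-H196. A549 was the only line that does not need ADAR1, and it received vehicle while the other lines were untreated. Dependency can thus not be told apart, here or below, from other traits or the handling of A549. Of the 9 members, 8 passed the test (adjusted p under 0.05) in HCC366 against A549, 8 in NCI-H1650 and 6 in NCI-H196. These shares stand beside 64.9%, 68.3% and 70.5% of all 15964 genes tested. The median log2 fold change of the members was 0.77, 0.54 and 0.73, against 0.00, −0.01 and 0.02 over all genes tested, and it is the same with *IFNLR1* in HCC366 set to the bound given below. Where all libraries of the dependent lines are said to lie above or below both A549 libraries, the share of all genes with that order was not counted. Because the libraries are bulk RNA of cell pools, more cells expressing a gene and more RNA per cell cannot be told apart here or below.

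**Figure D1:**
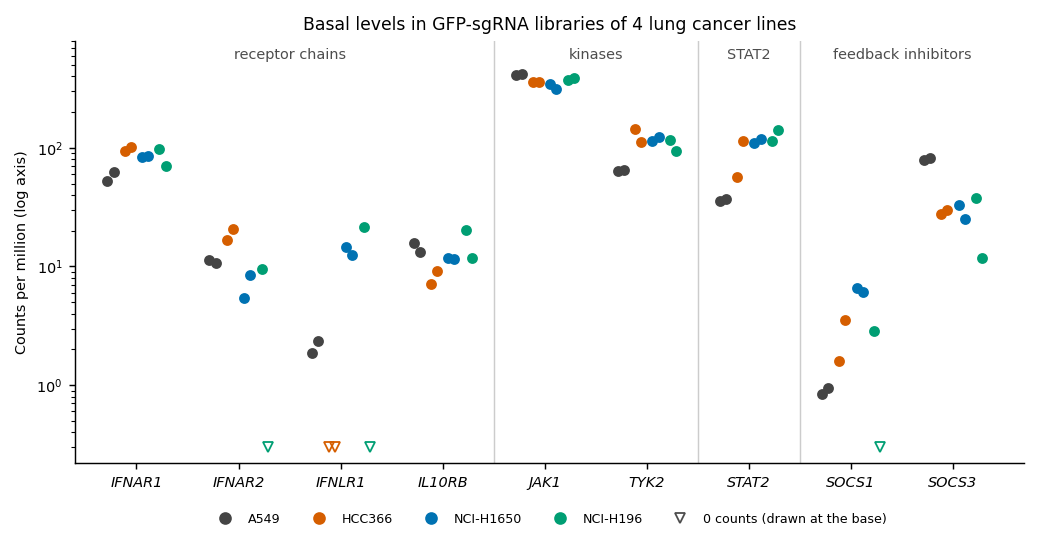
CPM (log axis) of the 9 genes in the 8 libraries with *GFP* sgRNAs, 2 points per cell line, grouped by role. *STAT2* and *TYK2* were lower in both A549 libraries (dark grey) than in any library of the other lines and *SOCS3* was higher, and *IFNLR1* had 0 counts in HCC366 (open triangles, also used where the shallow NCI-H196 library had 0).

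*IFNAR1*, the low-affinity chain of the type I receptor (chr21:34696692-34732170 in hg19 coordinates, plus strand), was at 53.0 and 62.2 CPM in A549. It was at 94.97 and 102 CPM in HCC366, 83.4 and 85.6 CPM in NCI-H1650, and 97.7 and 70.8 CPM in NCI-H196. All 6 libraries of the dependent lines were above both A549 libraries. The log2 fold change over A549 was 0.77 ± 0.14 (standard error) for HCC366, 0.54 ± 0.13 for NCI-H1650 and 0.73 ± 0.15 for NCI-H196, with adjusted p of 3.46e-07, 1.06e-04 and 2.36e-06 (edgeR). In NCI-H196 the call was lost by DESeq2 (adjusted p = 0.0671) and without the deep library (0.26, adjusted p = 0.873).

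*IFNAR2*, the high-affinity chain (chr21:34577587-34637980, plus strand), was scarcer, and its order among the lines was different. It was at 11.3 and 10.8 CPM in A549, 16.8 and 20.7 CPM in HCC366, 5.47 and 8.56 CPM in NCI-H1650, and 9.54 CPM with 91 reads in the deep NCI-H196 library and 0 in the shallow library. HCC366 was the highest line (log2 fold change over A549 0.82, adjusted p = 0.00438, edgeR) and NCI-H1650 was below A549 (−0.65, adjusted p = 0.0271, edgeR). Neither call was made by DESeq2 (adjusted p = 0.389 and 0.618). The call was also lost without HCC366 GFP sgRNA 2 (0.59, adjusted p = 0.254) and, for NCI-H1650, without its GFP sgRNA 1 (−0.38, adjusted p = 0.360) or A549 GFP sgRNA 2 (adjusted p = 0.0509). NCI-H196 and A549 were neighbours that did not differ beyond their spread (−0.23, 95% CI −0.79 to 0.33). The annotated readthrough gene *IFNAR2-IL10RB* shares 14.7% of the exonic bases of *IFNAR2* and 21.6% of those of *IL10RB* and has 0 counts in all 20 libraries. Whether reads on the shared bases were left out as ambiguous was not tested, so the levels of both genes are uncertain to that extent.

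*IFNLR1*, the chain specific to type III interferons (chr1:24480658-24514449, minus strand), had the widest range. No read was counted in any of the 4 HCC366 libraries. It was at 1.86 and 2.34 CPM in A549, at 14.5 and 12.6 CPM in NCI-H1650, and at 21.4 CPM with 204 reads in the deep NCI-H196 library. Against a floor of 3 counts over both HCC366 *GFP* libraries together, which is 0.648 CPM, its level was at least 3.24-fold higher in A549, 16.5-fold in NCI-H196 and 20.9-fold in NCI-H1650. The increase over A549 was 2.64 ± 0.32 on the log2 scale in NCI-H1650 (adjusted p = 3.16e-14, edgeR) and 3.24 ± 0.32 in NCI-H196 (adjusted p = 9.73e-20, edgeR). The value of NCI-H196 rests on its deep library, and without it the fitted value was −6.30 (adjusted p = 0.800).

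*IL10RB*, the partner of IFNLR1 (chr21:34638672-34683725, plus strand), did not follow it. It was at 15.9 and 13.2 CPM in A549, 7.18 and 9.18 CPM in HCC366, 11.8 and 11.5 CPM in NCI-H1650, and 20.1 and 11.8 CPM in NCI-H196. HCC366 was lowest, with a log2 fold change against A549 of −0.74 ± 0.30 (adjusted p = 0.0212, edgeR), which DESeq2 did not call (adjusted p = 0.410). NCI-H1650 (−0.30, adjusted p = 0.25) and NCI-H196 (0.47, adjusted p = 0.0647) did not pass the test against A549.

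The kinases behaved differently from each other. *JAK1*, which serves both interferon receptors and many cytokine receptors (chr1:65298906-65533437, minus strand), had the most counts of the 9 in each of these libraries. It was at 408 and 419 CPM in A549, 358 and 361 CPM in HCC366, 346 and 312 CPM in NCI-H1650, and 374 and 390 CPM in NCI-H196. The whole range is narrow, and of the lines compared with A549 NCI-H1650 alone passed the test (log2 fold change −0.33 ± 0.13, adjusted p = 0.0203, edgeR), and not by DESeq2 (adjusted p = 0.322). *TYK2* (chr19:10461209-10491284, minus strand) was at 63.5 and 64.8 CPM in A549. It was at 144 and 111 CPM in HCC366, 115 and 123 CPM in NCI-H1650, and 117 and 94.4 CPM in NCI-H196. Every library of the dependent lines was above both A549 libraries, with log2 fold changes of 0.95 ± 0.14, 0.89 ± 0.13 and 0.85 ± 0.14 and adjusted p of 1.96e-10, 9.49e-11 and 2.74e-08 (edgeR).

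*STAT2*, the subunit that distinguishes ISGF3 (chr12:56735381-56753987, minus strand), showed the clearest difference in the pathway's middle. It was at 35.5 and 37.04 CPM in A549, 56.7 and 115 CPM in HCC366, 109 and 119 CPM in NCI-H1650, and 115 and 142 CPM in NCI-H196. Both A549 libraries were below all the others, and the 2 HCC366 libraries differed by more than those of any other line with comparable depth. The log2 fold change over A549 was 1.35 ± 0.15 for HCC366, 1.65 ± 0.14 for NCI-H1650 and 1.68 ± 0.15 for NCI-H196 (adjusted p = 7.56e-16, 2.84e-25 and 2.60e-22, edgeR). Without HCC366 GFP sgRNA 2 the value in HCC366 was 0.62, and it still passed the test (adjusted p = 0.0217).

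The feedback inhibitors were opposed. *SOCS1* (chr16:11348274-11350061, minus strand), an inhibitor that acts on the JAK kinases directly, was very low in A549, at 0.845 and 0.954 CPM or 5 and 11 reads. It was at 1.60 and 3.55 CPM in HCC366, 6.53 and 6.08 CPM in NCI-H1650, and 2.83 CPM with 27 reads in the deep NCI-H196 library. All libraries but the shallow one, which had no read, were above A549, with log2 fold changes of 1.67 ± 0.61, 2.75 ± 0.45 and 1.58 ± 0.54 (adjusted p = 0.00976, 6.19e-09 and 0.00484, edgeR). DESeq2 made none of these 3 calls (adjusted p = 0.351, 0.0543 and 0.415). The value of HCC366 was 0.77 without its GFP sgRNA 2 library (adjusted p = 0.649), and that of NCI-H196 rests on the deep library. *SOCS3* (chr17:76352859-76356158, minus strand), which acts mainly on receptors of the interleukin-6 family, was at 79.1 and 82.4 CPM in A549. It was at 27.9 and 29.9 CPM in HCC366, 32.8 and 25.2 CPM in NCI-H1650, and 37.4 and 11.8 CPM in NCI-H196, the last from 1 read. A549 was thus above every other library, and the log2 fold changes were −1.47 ± 0.17, −1.47 ± 0.15 and −1.14 ± 0.17 (adjusted p = 1.92e-14, 1.79e-18 and 3.17e-10, edgeR).

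The dependent lines were also compared with each other. In HCC366 against NCI-H1650, 3 of 9 passed the test (56.7% of all genes did): *IFNAR2* was higher in HCC366 (1.47), and *IFNLR1*, at 0 counts, and *SOCS1* (−1.08) were lower. In NCI-H196 against HCC366, 3 of 9 passed (57.3% of all genes): *IFNAR2* was lower in NCI-H196 (−1.05), and *IFNLR1* and *IL10RB* (1.21) were higher. In NCI-H196 against NCI-H1650, 3 of 9 passed (61.7% of all genes), *IFNLR1* (0.61) and *IL10RB* (0.77) upwards and *SOCS1* (−1.17) downwards. DESeq2 called *IFNLR1* alone in each comparison with HCC366 and no member in NCI-H196 against NCI-H1650, where the 3 edgeR calls were also lost without the deep NCI-H196 library, and those of *IFNLR1* and *SOCS1* without either NCI-H1650 library. The *SOCS1* difference of HCC366 from NCI-H1650 missed the threshold without any 1 of the 4 libraries. The lower *IFNAR2* of NCI-H196 against HCC366 missed it without HCC366 GFP sgRNA 2 (−0.85, adjusted p = 0.111) or the deep NCI-H196 library, and the higher *IL10RB* without the latter (0.45, adjusted p = 0.896). *IFNAR1*, *JAK1*, *TYK2*, *STAT2* and *SOCS3* did not pass in any of these 3 comparisons with all libraries. Without HCC366 GFP sgRNA 2, *STAT2* passed in HCC366 against NCI-H1650 (−1.06, adjusted p = 6.54e-06, edgeR) and in NCI-H196 against HCC366 (1.02, adjusted p = 2.78e-05, edgeR). With all libraries, the intervals of their differences lay between −0.59 and 0.74 on the log2 scale.

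Levels can be set side by side between genes only after division by exon length. Per kilobase of exon, *JAK1* was the highest in all 4 lines, from 25.0 CPM per kb in NCI-H1650 to 31.4 in A549. *SOCS3* was next in A549, at 29.5 CPM per kb, and lay at 9.01 to 10.6 in the other lines. *TYK2* was next in HCC366 and NCI-H1650, at 14.96 and 13.96 CPM per kb, and *STAT2* in NCI-H196, at 13.8. The values of NCI-H196 in this paragraph are means that include the shallow library. In its deep library *TYK2* was at 13.73, *SOCS3* at 13.70 and *STAT2* at 12.4 CPM per kb, so *STAT2* was not next there. *IL10RB* was at 2.51 and *IFNAR2* at 0.688 CPM per kb in that library. The receptor chains were below both kinases and *STAT2* in each line, with *IFNAR1* at 3.68 to 6.28 CPM per kb, above *IL10RB* at 1.02 to 1.99 and *IFNAR2* at 0.344 to 1.35. These lengths are the union of annotated exons, which is longer than the main transcript for several of these genes.

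The effect of *ADAR* KO at baseline was then compared within each line. In the dependent lines the inhibitors *SOCS1* and *SOCS3* had the largest fold changes of the members tested in each line, and both passed the test over the 3 lines with all 12 libraries, calls that were lost for either gene when certain single libraries were left out. No receptor chain passed the test in any line with all libraries. The counts were 0 of 8 members tested in HCC366, where 1.25% of all genes passed, 2 of 9 in NCI-H1650 (8.60% of all genes) and 3 of 9 in NCI-H196 (17.8% of all genes). In HCC366, 2 of the 8 had an unadjusted p under 0.05, and DESeq2 also called 0. Without HCC366 ADAR sgRNA 1, which leaves the library with a low share of unique alignments to stand for KO, 4 of the 8 passed. *IFNLR1* could not be tested in HCC366, where it had no counts. The members' median log2 fold change was 0.17, 0.31 and 0.20, against −0.01, 0.01 and −0.00 over all genes tested. In a fit of the 12 libraries with the line as covariate, 2 of 9 passed, *SOCS1* and *SOCS3*, beside 5.30% of all genes.

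**Figure D2:**
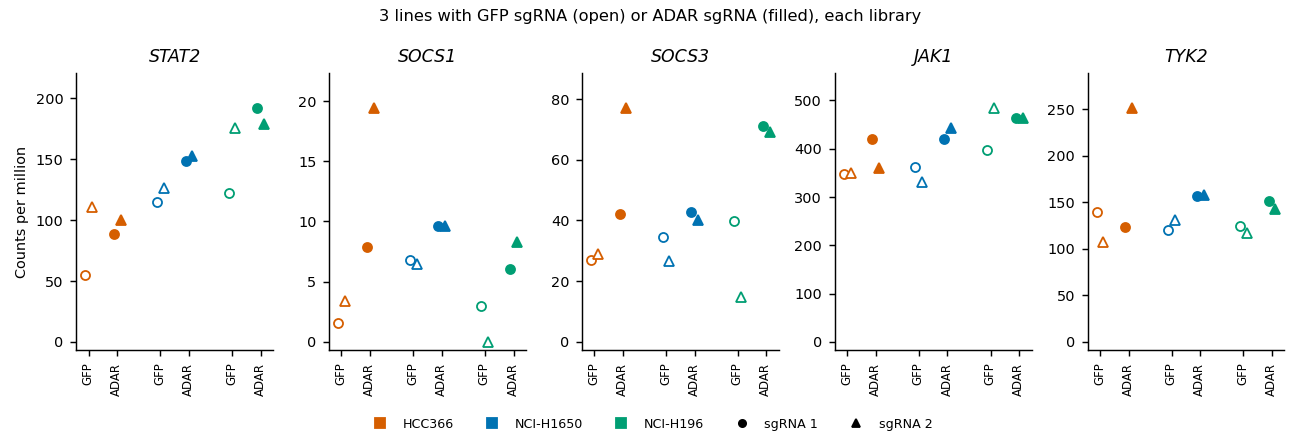
CPM of *STAT2*, *SOCS1*, *SOCS3*, *JAK1* and *TYK2* in each library of the ADAR1-dependent lines, open symbols with *GFP* and filled symbols with *ADAR* sgRNAs (circle, sgRNA 1; triangle, sgRNA 2). For *SOCS1* and *SOCS3* the filled symbols lie above the open ones in all 3 lines, as for 25.1% to 26.2% of all genes tested in a line. The *SOCS1* point at 0 is the shallow NCI-H196 library.

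*SOCS3* rose across the lines. It went from 27.1 and 28.9 CPM with *GFP* to 42.0 and 77.0 CPM with *ADAR* sgRNAs in HCC366, from 34.4 and 26.8 to 42.9 and 40.1 CPM in NCI-H1650, and from 39.8 and 14.7 to 71.1 and 69 CPM in NCI-H196. The groups did not overlap in any of the 3 lines, an order (both libraries higher) that 25.1%, 26.2% and 25.6% of all genes tested also showed in the respective line. The call was made in NCI-H196 (log2 fold change 0.82 ± 0.15, adjusted p = 1.01e-06, edgeR), while HCC366, at 1.09 ± 0.40, and NCI-H1650, at 0.44 ± 0.15, missed the threshold (adjusted p = 0.210 and 0.0583). Over the 12 libraries it was 0.74 ± 0.17 (adjusted p = 0.0183, edgeR), and 0.52 (adjusted p = 0.00668) when GC content and length were modelled. In HCC366 that model gave 0.56, and leaving out ADAR sgRNA 2, the library with a low share of unique alignments, gave 0.59. Without HCC366 GFP sgRNA 1 the value over the lines was 0.69 and missed the threshold (adjusted p = 0.0661).

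*SOCS1* rose in the same fit, from few reads. In HCC366 it was at 1.55 and 3.44 CPM with *GFP* (2 and 12 reads) and at 7.87 and 19.4 CPM with *ADAR* sgRNAs (9 and 30 reads). In NCI-H1650 it was at 6.84 and 6.45 CPM against 9.66 and 9.61 CPM. In NCI-H196 it was at 3.01 CPM with 27 reads and 0 in the shallow library, against 6.09 and 8.28 CPM. The *ADAR* libraries were above the *GFP* libraries in each line, an order that 25.1%, 26.2% and 25.6% of all genes tested also showed respectively. In the shallow NCI-H196 library 1 read is about 14.7 CPM on this scale, so its 0 cannot show a level below those of the *ADAR* libraries. Over the 12 libraries the log2 fold change was 1.17 ± 0.28 (adjusted p = 0.0227, edgeR). NCI-H196 passed alone (1.41 ± 0.36, adjusted p = 0.00120, edgeR), and HCC366, at 2.29 ± 0.62, and NCI-H1650, at 0.53 ± 0.27, did not (adjusted p = 0.118 and 0.230). With GC content and length modelled the value in HCC366 was 1.39, and without its ADAR sgRNA 2 library it was 1.45, short of the threshold in both, while without ADAR sgRNA 1 it was 2.71 (adjusted p = 5.14e-06). The call over the 3 lines was lost without HCC366 GFP sgRNA 1 or 2, NCI-H196 ADAR sgRNA 2 or NCI-H196 GFP sgRNA 1, with adjusted p of 0.0512 to 0.0687.

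*STAT2* passed the test in NCI-H196 alone. There it was at 123 CPM with 1099 reads and at 176 CPM with 12 reads in the *GFP* libraries, and at 192 and 179 CPM in the *ADAR* libraries (log2 fold change 0.56 ± 0.11, adjusted p = 4.60e-06, edgeR). It was at 115 and 127 against 148 and 153 CPM in NCI-H1650 (0.32 ± 0.11, adjusted p = 0.0501), and at 55 and 111 against 88.4 and 100.2 CPM in HCC366 (0.17 ± 0.40, adjusted p = 0.842). The *GFP* and *ADAR* libraries overlapped in HCC366 and not in NCI-H1650, where 26.2% of all genes tested also had both *ADAR* libraries higher. In NCI-H196 the call rests on the deep *GFP* library: without it, the shallow library alone gave 0.06, and without the shallow library the value was 0.56. *SOCS1* and *SOCS3* also passed there without the shallow *GFP* library (1.40 and 0.79). No member passed in NCI-H196 without the deep *GFP* library, without ADAR sgRNA 2 or by DESeq2, and 1 member, *SOCS1*, passed without ADAR sgRNA 1.

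The kinases passed the test in NCI-H1650 alone and by small amounts. *JAK1* was at 363 and 331 CPM with *GFP* and at 419 and 443 CPM with *ADAR* sgRNAs (log2 fold change 0.31 ± 0.10, adjusted p = 0.0373, edgeR). *TYK2* was at 120 and 131 against 156 and 158 CPM (0.33 ± 0.11, adjusted p = 0.0426, edgeR). Neither passed by DESeq2 (adjusted p = 0.132 and 0.238). *TYK2* missed the threshold with any 1 library left out and *JAK1* with any but ADAR sgRNA 1 left out (adjusted p up to 0.475). In HCC366 *TYK2* was at 123 CPM in ADAR sgRNA 1, between the *GFP* values of 139 and 108 CPM, and at 251 CPM in ADAR sgRNA 2. Its log2 fold change there was 0.61 with a 95% CI from −0.30 to 1.52.

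The receptor chains did not pass the test with all libraries. *IFNAR1* was at 92.2 and 98.6 CPM with *GFP* and at 91.0 and 45.3 CPM with *ADAR* sgRNAs in HCC366, and its interval was −1.40 to 0.41 on the log2 scale. Without HCC366 ADAR sgRNA 1 its log2 fold change was −1.10 (adjusted p = 7.83e-05, edgeR), against −0.50 with all libraries. In NCI-H1650 and NCI-H196 the intervals were narrower, −0.37 to 0.09 and −0.26 to 0.18. *IFNAR2* had a log2 fold change of −0.20, −0.15 and −0.26 in HCC366, NCI-H1650 and NCI-H196, and *IL10RB* of −0.53, 0.11 and 0.16. *IFNLR1* was at 15.2 and 13.4 against 12.1 and 15.4 CPM in NCI-H1650 (−0.07, 95% CI −0.49 to 0.35) and, in NCI-H196, at 22.8 CPM in the deep *GFP* library against 21.3 and 21.2 CPM (−0.08, −0.46 to 0.30).

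No member differed among the 3 lines in its response to KO by a test of that difference (0 of 9, beside 0.701% of all genes, with *SOCS1* at an unadjusted p of 0.0256 and an adjusted p of 0.310 in edgeR). DESeq2 called 0 members there too, and 4 passed without HCC366 ADAR sgRNA 1. The mean response of the 3 lines minus that of vehicle-treated A549 passed for 0 of 9 members (0.953% of all genes), also by DESeq2, with 2 at an unadjusted p under 0.05. Without HCC366 ADAR sgRNA 1, 2 members passed. *SOCS3* had the smallest adjusted p in that comparison, with a difference of 0.81 ± 0.23 (adjusted p = 0.0871, edgeR), and *SOCS1* had 1.59 ± 0.73 (adjusted p = 0.314). A list of 29 other genes of the pathway (receptor chains, kinases, STATs, SOCS genes and other inhibitors) was taken beside the members. After KO it gave 0 calls of 24 tested in HCC366, 2 of 26 in NCI-H1650, 7 of 26 in NCI-H196 and 1 of 28 across the lines, beside the 1.25%, 8.60%, 17.8% and 5.30% of all genes given above. The median log2 fold changes of the list were −0.27, 0.09, 0.20 and −0.07.

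Negative regulators and STATs made up these calls. *USP18*, a protease that holds the type I receptor silent, rose by 0.70 in NCI-H1650 (adjusted p = 0.00112, edgeR) and by 1.10 in NCI-H196 (adjusted p = 4.81e-10, edgeR). In NCI-H196 the mean of the *GFP* libraries, the shallow library included, was 79.3 CPM with a standard deviation of 74.4. The mean of the *ADAR* libraries there was lower, at 64.6 CPM, so the fitted rise and the plain means differ in direction. *SOCS2*, an inhibitor best known for growth hormone signalling, rose by 0.82 in NCI-H1650, 0.56 in NCI-H196 and 0.57 across the lines (adjusted p = 0.0479, edgeR). In the NCI-H196 fit *STAT4* (1.00) and *STAT5A* (0.75) also rose, and *PIAS3* (−0.56) and *SOCS4* (−0.33) fell. The plain means, the shallow library included, do not show these falls. *PIAS3* was at 21.1 CPM (standard deviation 29.8) with *GFP* and 25.4 CPM with *ADAR* sgRNAs. *SOCS4* was at 71.5 CPM (standard deviation 38.9) and 71.9 CPM.

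In A549 with vehicle, *ADAR* KO left every member short of the threshold, 0 of 9 by edgeR, 0 at an unadjusted p under 0.05 and 0 by DESeq2, beside 0.123% of all genes. *STAT2* was at 27.7 and 28.4 CPM with *GFP* and at 29.3 and 29.5 CPM with *ADAR* sgRNAs. *SOCS3* was at 61.8 and 63.1 against 60.0 and 62.1 CPM. The 95% intervals of these differences were −0.18 to 0.31 and −0.27 to 0.21 on the log2 scale. For *SOCS1*, with 1 to 11 reads per library, the interval was −1.59 to 1.21.

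**Figure D3:**
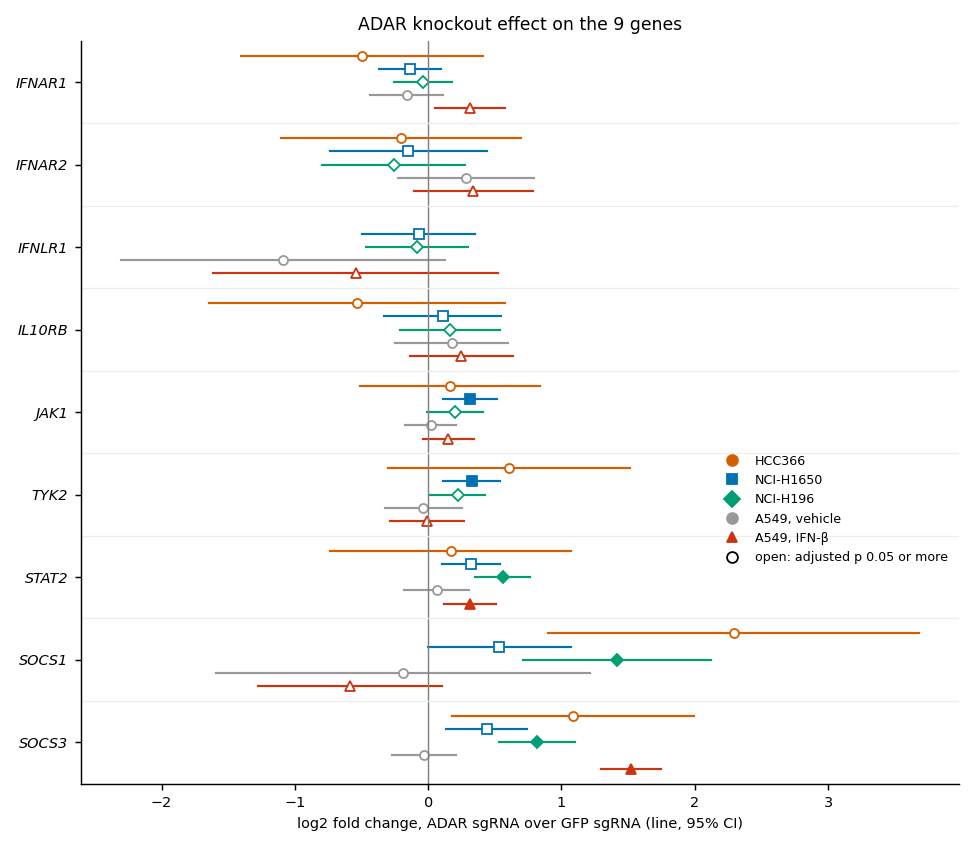
Log2 fold change after *ADAR* KO (x axis; lines are 95% confidence intervals) for the 9 genes in 5 settings, filled where the adjusted p from edgeR was under 0.05. *SOCS3* was highest in A549 with IFN-β (1.52) and was near 0 in A549 with vehicle (−0.03), and the receptor chains are open symbols in every setting where they were tested (*IFNLR1* is not drawn for HCC366).

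The effect of IFN-β on the members was compared in A549. *STAT2* and *SOCS1* rose strongly in *GFP* cells, *SOCS3* rose slightly, and of the receptor chains and kinases *IFNAR2* alone passed the test, in *ADAR* KO cells. The test passed for 3 of 9 members with *GFP* sgRNAs, beside 5.70% of all genes, and for 4 of 9 with *ADAR* sgRNAs, beside 24.5% of all genes. All of these calls were increases. The members' median log2 fold change was 0.41 with *GFP* and 0.48 with *ADAR* sgRNAs, against 0.00 and −0.00 over all 15449 genes tested.

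**Figure D4:**
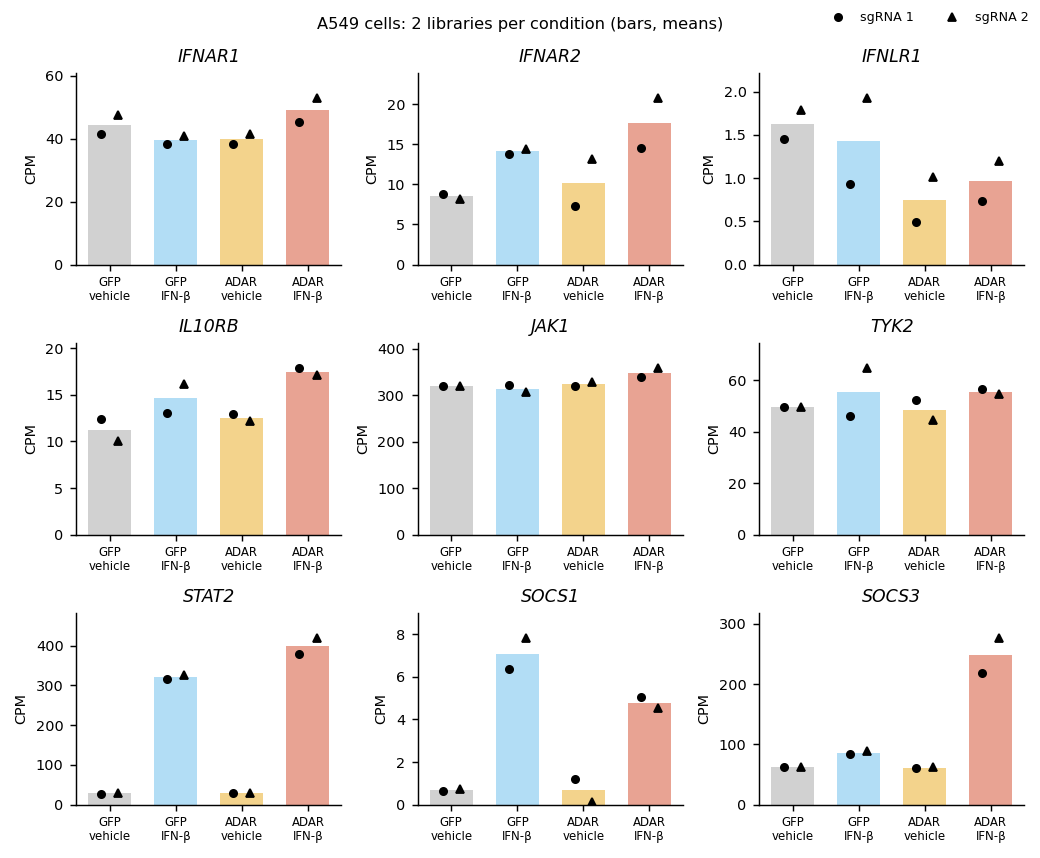
CPM in the 8 A549 libraries, 1 panel per gene; bars are means of the 2 libraries, circles sgRNA 1 and triangles sgRNA 2. *STAT2* rose with IFN-β to 317 CPM or more in all 4 treated libraries, *SOCS3* reached 219 and 276 CPM in the *ADAR* libraries only, and *JAK1* stayed between 307 and 358 CPM throughout.

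*STAT2* rose from 27.7 and 28.4 CPM to 317 and 325 CPM with *GFP* sgRNAs, and from 29.3 and 29.5 to 378 and 419 CPM with *ADAR* sgRNAs. There was no overlap between treated and untreated libraries, an order (both treated libraries higher) that 21.7% of all genes tested showed in *GFP* and 33.3% in *ADAR* KO cells. The log2 fold change was 3.51 ± 0.11 (11.4-fold, adjusted p = 1.43e-21, edgeR) and 3.76 ± 0.11 (13.6-fold, adjusted p = 3.53e-22, edgeR). In a scaling over all 20 libraries *STAT2* was at 389 CPM in IFN-β-treated A549 *GFP* cells, against 77.2, 107 and 116 CPM in HCC366, NCI-H1650 and NCI-H196 *GFP* cells (means of 2 libraries).

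*SOCS1* rose from 5 and 11 reads to 68 and 126 reads with *GFP* sgRNAs, or from 0.660 and 0.730 CPM to 6.38 and 7.82 CPM. With *ADAR* sgRNAs it rose from 1.22 and 0.102 CPM (10 reads and 1 read) to 5.04 and 4.53 CPM. The log2 fold change was 3.32 ± 0.45 (adjusted p = 2.44e-06, edgeR) and 2.92 ± 0.50 (adjusted p = 4.37e-05, edgeR). In *ADAR* KO cells the value was 1.96 without the vehicle library that had 1 read and 5.42 without the one that had 10, and it passed the test in both.

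*SOCS3* was the member whose response to IFN-β differed between *GFP* and *ADAR* KO cells. With *GFP* sgRNAs it went from 61.8 and 63.1 CPM to 83.6 and 89.0 CPM, a log2 fold change of 0.47 ± 0.12 (adjusted p = 0.00841, edgeR) that missed the threshold without either vehicle library (adjusted p = 0.126 and 0.102). With *ADAR* sgRNAs it went from 60.0 and 62.1 CPM to 219 and 276 CPM, or 2.02 ± 0.12 (4.06-fold, adjusted p = 6.42e-15, edgeR). The interaction, which tests the difference between these responses, was 1.55 ± 0.16 (95% CI 1.22 to 1.89, adjusted p = 9.54e-08, edgeR), and it lay between 1.37 and 1.71 in 14 other settings. *SOCS3* was the 1 member of 9 that passed the interaction test, beside 5.05% of all genes.

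Under IFN-β, *ADAR* KO cells exceeded *GFP* cells for 2 of 9 members, beside 17% of all genes. *SOCS3* differed by 1.52 ± 0.11 (2.87-fold, adjusted p = 1.59e-11, edgeR) and *STAT2* by 0.31 ± 0.10 (adjusted p = 0.0211, edgeR). Without ADAR IFN-β sgRNA 2 the *STAT2* value was 0.24 (adjusted p = 0.302). The *STAT2* interaction was 0.25 with a 95% CI of −0.06 to 0.56 and did not pass. *SOCS1* went the other way, at 5.04 and 4.53 CPM with *ADAR* against 6.38 and 7.82 CPM with *GFP* sgRNAs (−0.58 ± 0.34, adjusted p = 0.247, edgeR), and its interaction was −0.40 with an interval from −1.97 to 1.17. These comparisons share libraries. The treated *GFP* libraries are the control of the KO effect under IFN-β and the treated group of the IFN-β effect in *GFP* cells. The vehicle *GFP* libraries are the control of both that IFN-β effect and the KO effect with vehicle, and the interaction uses all of them. The values of these comparisons thus stand side by side and are not independent.

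Among the receptor chains, *IFNAR2* was the one that passed the test with IFN-β. It was at 8.84 and 8.23 CPM with vehicle and at 13.8 and 14.4 CPM with IFN-β in *GFP* cells (log2 fold change 0.73 ± 0.24, adjusted p = 0.0685, edgeR), and at 7.32 and 13.1 CPM against 14.5 and 20.7 CPM in *ADAR* KO cells (0.79 ± 0.23, adjusted p = 0.0119, edgeR). The treated libraries were above the untreated libraries in both backgrounds, as for 21.7% and 33.3% of all genes tested, and the interaction was 0.06 with an interval from −0.62 to 0.74. The call in *ADAR* KO cells was lost without ADAR IFN-β sgRNA 2 (0.48, adjusted p = 0.318) and without ADAR vehicle sgRNA 1 (0.45, adjusted p = 0.269). *IL10RB* was at 12.4 and 10.1 against 13.04 and 16.2 CPM in *GFP* cells and at 12.9 and 12.2 against 17.9 and 17.1 CPM in *ADAR* KO cells. Its log2 fold changes of 0.41 and 0.48 did not pass (adjusted p = 0.332 and 0.0780, edgeR).

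*IFNAR1* differed in sign between the backgrounds without passing the test in either. It was at 41.4 and 47.6 against 38.4 and 40.9 CPM in *GFP* cells (−0.17, adjusted p = 0.604, edgeR) and at 38.4 and 41.5 against 45.4 and 52.9 CPM in *ADAR* KO cells (0.30, adjusted p = 0.0950, edgeR), and the interaction was 0.48 ± 0.19 (adjusted p = 0.148, edgeR). *IFNLR1* stayed at 0.488 to 1.93 CPM in all 8 libraries, with 4 to 31 reads, and its intervals were −1.20 to 0.88 with *GFP* and −0.87 to 1.65 with *ADAR* sgRNAs.

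The kinases were nearly flat under IFN-β. *JAK1* was at 319 and 321 CPM with vehicle and 321 and 307 CPM with IFN-β in *GFP* cells, a log2 fold change of −0.03 with a 95% CI of −0.22 to 0.16. In *ADAR* KO cells it was at 320.0 and 328 against 339 and 358 CPM (0.11, −0.09 to 0.30). *TYK2* was at 49.6 and 49.6 against 46.3 and 64.8 CPM in *GFP* cells (0.17, −0.11 to 0.45) and at 52.4 and 44.4 against 56.6 and 54.5 CPM in *ADAR* KO cells (0.20, −0.08 to 0.48). For both kinases these intervals exclude a 2-fold rise or fall.

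**Figure D5:**
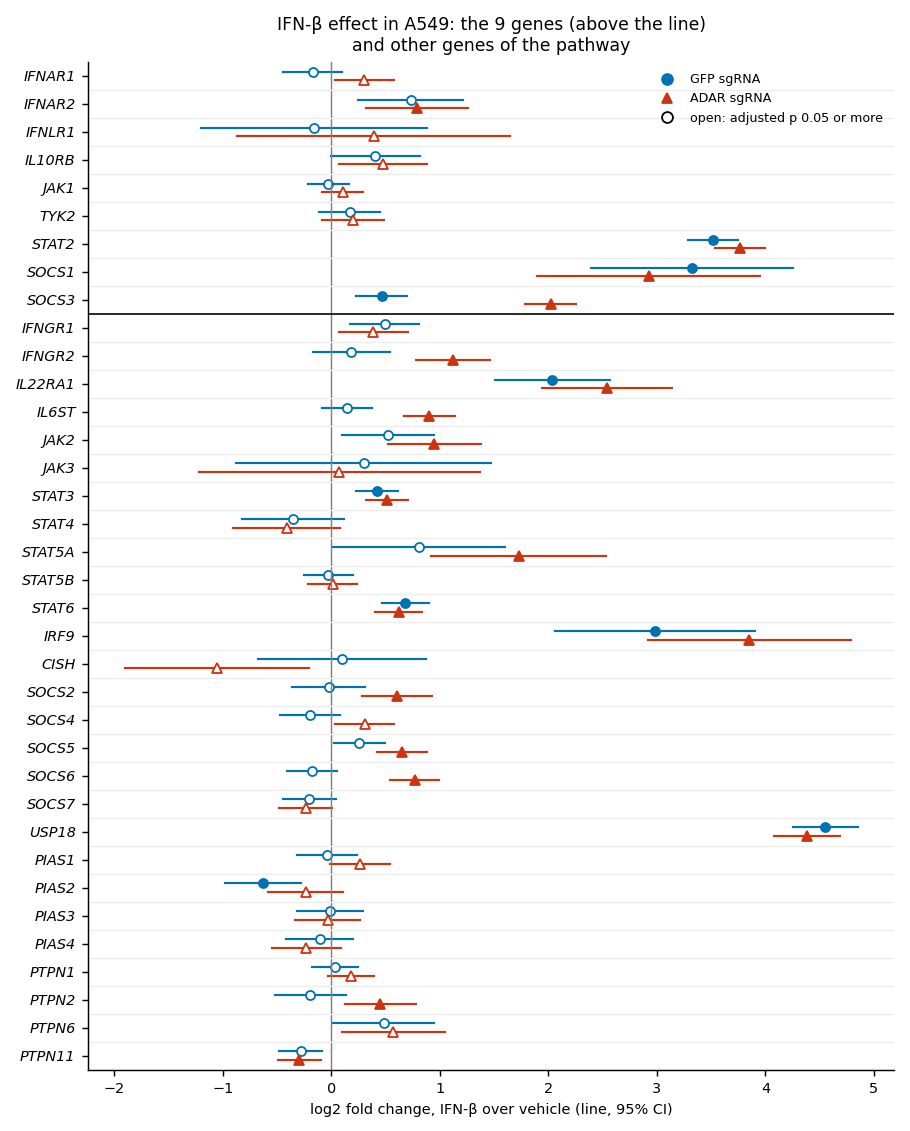
Log2 fold change with IFN-β in A549 (x axis; lines are 95% confidence intervals) for the 9 genes and for 27 tested genes of the pathway list, with *GFP* (circles) and *ADAR* sgRNAs (triangles), filled where the adjusted p from edgeR was under 0.05. *STAT2*, *IRF9* and the inhibitor *USP18* lie at 2.98 or above in both backgrounds, whereas *JAK1* and *TYK2* lie near 0.

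The other genes of the pathway list gave 7 calls of 28 tested in *GFP* cells, 6 of them increases, and 15 of 28 in *ADAR* KO cells, 14 of them increases, beside 5.70% and 24.5% of all genes. Their median log2 fold changes were 0.12 and 0.48. *IRF9*, which joins STAT2 in ISGF3, rose from 0.132 and 0.863 to 5.35 and 4.35 CPM with *GFP* sgRNAs (2.98 ± 0.45, adjusted p = 1.34e-05, edgeR) and by 3.85 with *ADAR* sgRNAs. *USP18* rose by 4.55 and 4.38. *STAT3* (0.42 and 0.51) and *STAT6* (0.68 and 0.62) rose less, and *PIAS2* (−0.63) fell in *GFP* cells.

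Receptor and inhibitor genes outside the members also responded. *IL22RA1*, a chain that pairs with IL10RB for interleukin-22, rose by 2.04 and 2.54. In *ADAR* KO cells *IFNGR2* (1.12), *IL6ST* (0.90), *JAK2* (0.95), *STAT5A* (1.73), *SOCS2* (0.61), *SOCS5* (0.65), *SOCS6* (0.77) and *PTPN2* (0.45) passed the test and did not in *GFP* cells, and *PTPN11* (−0.30) fell. The difference between backgrounds passed its own test for 3 of the 28, beside 5.05% of all genes: *IFNGR2* (0.93, adjusted p = 0.0186, edgeR), *IL6ST* (0.76, adjusted p = 0.00353, edgeR) and *SOCS6* (0.95, adjusted p = 1.92e-04, edgeR). IL6ST is the shared signal chain of the interleukin-6 family, and IFNGR2 is a chain of the type II interferon receptor. In *ADAR* KO against *GFP* cells under IFN-β, 7 of the 28 passed, beside 17% of all genes, and 4 of these were SOCS family genes: *SOCS2* (0.81), *SOCS4* (0.48), *SOCS5* (0.65) and *SOCS6* (0.99).

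Over the mean log2 CPM of the 10 conditions, the genes with the pattern most like a member's were ranked by Pearson's r. For *STAT2* they were *USP18* (0.99), *PARP9* (0.97) and *NMI* (0.97). For *SOCS3* they were *AJUBA* (0.96), *STAMBPL1* (0.94) and *MIR503HG* (0.94), and for *SOCS1* *ARRDC3-AS1* (0.95), *TAPBPL* (0.94) and *TUBA8* (0.94). For *IFNAR1* the leading gene was *NCOA1* (0.96), for *IFNAR2* *CFAP418* (0.98), for *IFNLR1* *SYTL5* (0.99), for *IL10RB* *RDH11* (0.98), for *JAK1* *NAT1* (0.92) and for *TYK2* *ZNF491* (0.98). The 10 points share cell lines, 4 of them being A549, and each ranking is the top of all tested genes with a symbol. The NCI-H196 *GFP* mean includes the shallow library, where *IFNAR2*, *IFNLR1* and *SOCS1* have 0 counts, so that their mean log2 CPM there is 0.75, 1.32 and −0.07, against 2.99, 4.18 and 2.65 with *ADAR* sgRNAs. How far the rankings of these 3 genes rest on that library was not tested. Between members, r was highest for *JAK1* with *SOCS3* (0.76) and lowest for *IL10RB* with *TYK2* (−0.71). It was −0.44 for the type I receptor chains *IFNAR1* and *IFNAR2* and 0.47 for the type III pair *IFNLR1* and *IL10RB*.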

How the data were processed

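RNA of 20 libraries was rRNA-depleted, made into directional libraries and sequenced as paired ends. The authors aligned reads to hg19 with STAR and deposited the HTSeq counts per Ensembl gene, which are whole read counts without normalization. Tool versions, the annotation release and the strand setting of the counting are not given in the sources used here. Symbols matched 55727 of 58233 identifiers (97.4% of counts). Totals ran from 62679 to 19520189 reads per library.

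From the deposited counts, edgeR 4.0.16 (R 4.3.3) was used with TMM scaling, its expression filter (minimum count 10), the quasi-likelihood F-test and Benjamini-Hochberg adjustment over all genes tested, at 0.05. Basal levels used the 8 *GFP* libraries, KO effects 1 fit per line, a fit of 12 libraries with line as covariate, and A549 1 fit of 8 libraries. Levels are TMM-scaled CPM over the libraries of the same fit, and marker levels over all 20. DESeq2 1.42.0, other scaling, no filter, a replicate block, a block by sgRNA in A549, all 20 libraries in 1 fit, GC and length offsets and leaving out each library were alternatives. The fit was tested on simulated counts. The genes named are the 9 members, *ADAR*, those of 29 other pathway genes that passed a KO or IFN-β test, and the genes most like each member over 10 conditions, of which the leading 1 to 3 are printed. Members and lists were chosen with earlier results of these data known. Promoters came from a RefSeq table on GRCh38.p14, gene positions from a GENCODE annotation on hg19. Some genes of these lists are counted but not reported by name here.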

Additional observations from a re-analysis of the deposited data

Results flagged for a closer look

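The response of *SOCS3* to IFN-β in A549 differed between *GFP* and *ADAR* KO cells by a test of the difference itself, an interaction of 1.55 on the log2 scale (adjusted p = 9.54e-08, edgeR's quasi-likelihood test). Both treated *ADAR* libraries, at 219 and 276 CPM, were above both treated *GFP* libraries, at 83.6 and 89.0 CPM, while the 4 vehicle libraries were between 60.0 and 63.1 CPM. Both treated *ADAR* libraries were above both treated *GFP* libraries for 28.2% of all genes tested.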

How the results depend on the processing

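The 2 libraries of a condition differ in sgRNA, so the spread behind each p is one between sgRNAs and not between repeats of the experiment. That spread was estimated over all groups of a fit together, and edgeR's quasi-likelihood fit also draws on the other genes. A small p is thus no measure of the spread of 1 condition alone. NCI-H196 GFP sgRNA 2 has 62679 reads and cannot show members under about 15.95 CPM. *SOCS1* and *IFNLR1* rest on few reads in A549 and HCC366. Of the members' results (log2 fold changes, or for the difference among the 3 lines adjusted p), 1491 kept their direction, where they have one, and their side of the threshold over all alternatives, 99 kept the direction and lost the call, 27 kept it and gained a call, and 79 turned sign. The *SOCS3* interaction kept its call in all 14 alternatives (1.37 to 1.71), and the rise of *STAT2* and of *SOCS1* with IFN-β passed in both backgrounds in each alternative run. Same-numbered deviations correlated at −0.25 in HCC366 and −0.08 to 0.06 elsewhere, so over all genes the numbers gave no sign of pairing. In A549, vehicle and IFN-β libraries of the same number carry the same sgRNA, which the main fit leaves out and the block by sgRNA takes in. With the numbers as a replicate block, *SOCS1* and *SOCS3* over the 3 lines missed the threshold (adjusted p = 0.0726 and 0.0523, edgeR). With that block *STAT2* passed in HCC366 against NCI-H1650 (−0.36, adjusted p = 0.0260, edgeR) and in NCI-H196 against HCC366 (0.53, adjusted p = 0.00647, edgeR). The GC and length model and the crossed block were chosen after seeing the data. The cause of the changes below was not tested. With DESeq2, genes past the threshold numbered 5321 for HCC366 against A549, 5450 for NCI-H1650 against A549, 5723 for NCI-H196 against A549, 3986 for HCC366 against NCI-H1650, 4402 for NCI-H196 against HCC366, 4154 for NCI-H196 against NCI-H1650, 362 for KO in HCC366, 413 for KO in NCI-H1650, 10 for KO in NCI-H196, 77 for the difference among the 3 lines and 11 for KO in A549 with vehicle. Members past it numbered 5 for HCC366 against A549, 5 for NCI-H1650 against A549, 1 for HCC366 against NCI-H1650, 1 for NCI-H196 against HCC366, 0 for NCI-H196 against NCI-H1650, 0 for KO in NCI-H1650 and 0 for KO in NCI-H196. Signs turned to −0.0036 for *SOCS3* in HCC366 against NCI-H1650, −0.032 for *JAK1* in NCI-H196 against HCC366 and −0.013 for *STAT2* in NCI-H196 against NCI-H1650. In 1 fit of all 20 libraries, genes past the threshold numbered 3701 for KO in HCC366, 159 for KO in NCI-H1650, 98 for KO in NCI-H196, 3148 for KO over the 3 lines, 450 for the difference among the 3 lines, 5 for KO in A549 with vehicle, 1087 for KO under IFN-β, 531 for IFN-β in *GFP* cells, 2067 for IFN-β in *ADAR* KO cells and 164 for the A549 interaction. Members past it numbered 2 for KO in HCC366, 0 for KO in NCI-H1650, 0 for KO in NCI-H196 and 1 for KO under IFN-β. Signs turned to −0.045 for *SOCS3* in HCC366 against NCI-H1650 and −0.0075 for *TYK2* in the A549 interaction. With no filter on low counts, genes past the threshold numbered 903 for KO in HCC366, 1552 for KO in NCI-H196, 1829 for KO over the 3 lines, 471 for the difference among the 3 lines, 30 for KO in A549 with vehicle and 111 for the 3 lines minus A549. Members past it numbered 1 for KO in HCC366 and 0 for KO in NCI-H1650. Signs turned to −0.016 for *SOCS3* in HCC366 against NCI-H1650, 0.048 for *IFNAR1* in NCI-H196 against HCC366, 0.0071 for *SOCS1* in NCI-H196 against HCC366, 0.024 for *TYK2* in NCI-H196 against NCI-H1650 and 0.015 for *TYK2* in KO under IFN-β. With sgRNA numbers taken as a replicate block, genes past the threshold numbered 300 for KO in HCC366, 115 for KO in NCI-H196, 362 for KO over the 3 lines and 109 for the 3 lines minus A549. Members past it numbered 1 for KO in HCC366, 0 for KO in NCI-H1650, 0 for KO in NCI-H196 and 0 for KO over the 3 lines. Signs turned to 0.019 for *IFNAR1* in NCI-H196 against HCC366, 0.084 for *IFNAR2* in KO in NCI-H196, 0.015 for *IFNLR1* in KO in NCI-H196 and −0.44 for *IL10RB* in KO in NCI-H196. With DESeq2's size factors in edgeR, members past the threshold numbered 0 for KO in NCI-H1650. Signs turned to −0.065 for *JAK1* in NCI-H196 against HCC366 and −0.13 for *STAT2* in NCI-H196 against NCI-H1650. With GC content and length modelled, genes past the threshold numbered 1038 for KO in HCC366, 1336 for KO in NCI-H196 and 1602 for KO over the 3 lines. Members past it numbered 1 for KO in NCI-H1650. Signs turned to 0.15 for *IFNAR2* in KO in HCC366, −0.094 for *STAT2* in KO in HCC366, −0.011 for *TYK2* in KO in HCC366 and 0.076 for *IL10RB* in KO over the 3 lines. With the numbers crossed in a block for HCC366, genes past the threshold numbered 960 for KO in HCC366. Members past it numbered 1 for KO in HCC366. Leaving out 1 library at a time gave these lowest and highest values. Those beyond 5 on either side of 0 are fits against libraries with no reads and are no measure of size. HCC366 against A549 gave 4 to 8 members called. NCI-H196 against A549 gave 2558 to 11967 genes called, *IFNLR1* −6.30 to 3.45, *IL10RB* −0.30 to 0.56, 2 to 7 members called and *SOCS1* −5.08 to 1.67. HCC366 against NCI-H1650 gave *SOCS3* −0.18 to 0.21 and *TYK2* −0.11 to 0.23. NCI-H196 against HCC366 gave 1662 to 9688 genes called, *IFNAR1* −0.50 to 0.010, *IFNLR1* 0 to 9.94, 0 to 3 members called, *SOCS1* −6.74 to 0.78, *SOCS3* −1.32 to 0.38, *STAT2* −0.026 to 1.02 and *TYK2* −0.41 to 0.0095. NCI-H196 against NCI-H1650 gave 1310 to 10463 genes called, *IFNAR1* −0.27 to 0.20, *IFNAR2* −7.97 to 0.75, *IFNLR1* −8.93 to 0.69, 0 to 3 members called, *SOCS3* −1.32 to 0.53 and *STAT2* −0.045 to 0.29. KO in HCC366 gave 9 to 6408 genes called, 0 to 4 members called and *STAT2* −0.27 to 0.78. KO in NCI-H1650 gave 542 to 1110 genes called, *IFNAR2* −0.47 to 0.18, *IFNLR1* −0.26 to 0.094 and 0 to 1 members called. KO in NCI-H196 gave 41 to 3041 genes called, *IFNAR1* −0.25 to 0.21, *IFNAR2* −0.29 to 7.67, *IFNLR1* −0.11 to 9.0, *IL10RB* −0.58 to 0.71, *JAK1* −0.052 to 0.21 and 0 to 4 members called. KO over the 3 lines gave 328 to 1907 genes called, *IFNLR1* −0.15 to 0.021, *IL10RB* −0.24 to 0.039 and 0 to 2 members called. The difference among the 3 lines gave 2 to 4707 genes called and 0 to 4 members called. KO in A549 with vehicle gave 3 to 17 genes called, *IFNAR2* −0.21 to 0.63, *SOCS1* −2.68 to 0.78 and *TYK2* −0.16 to 0.081. KO under IFN-β gave 689 to 3581 genes called, *IFNLR1* −0.99 to 0.11, 1 to 2 members called and *TYK2* −0.22 to 0.26. IFN-β in *GFP* cells gave 517 to 1245 genes called, *IFNLR1* −0.81 to 0.22, *JAK1* −0.059 to 0.0086 and *TYK2* −0.096 to 0.39. IFN-β in *ADAR* KO cells gave 1774 to 3496 genes called and *IFNLR1* −0.072 to 1.04. The A549 interaction gave 253 to 1663 genes called, *IFNAR2* −0.28 to 0.56, *IL10RB* −0.068 to 0.24, *SOCS1* −1.36 to 2.10 and *TYK2* −0.18 to 0.30. The 3 lines minus A549 gave 24 to 3032 genes called, *IFNAR1* −0.34 to 0.071, *IFNAR2* −0.85 to 2.43 and 0 to 2 members called.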
